A study of Mus musculus with 6 samples.

Results

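The rapid immediate early genes Fos, Fosb, Junb, Egr1, Egr2, Egr3, Egr4, Npas4, Nr4a1 and Arc were followed mouse by mouse in RNA-seq of the hippocampus. They are 10 of the 53354 gene symbols in the table of isoform counts and hold 31 of its 133944 isoforms, found by their isoform names. The genes were picked after earlier results from the same libraries had shown activity-regulated genes higher on average in one genotype, with 1 mouse of that genotype standing apart, so the genotype values and the covariation below are a description of these mice. Each library came from 1 mouse, 3 of them N-cre and 3 of them N-cre;Fox1, all labelled C57BL/6 and 3 months old. All 6 mice carried Nes-cre, in which the nestin promoter drives Cre. The N-cre;Fox1 mice also carried 1 copy of an Rbfox1 cDNA at Gt(ROSA)26Sor, behind the CAG promoter and a loxP-flanked STOP cassette that Cre removes. According to the study, Cre acted in dentate gyrus granule cells and in CA1 and CA3 pyramidal neurons. The allele was made in ES cells of 129 origin and then backcrossed.

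Immediate early genes are transcribed within minutes of strong synaptic input, without new protein synthesis. Calcium and kinase signals act on factors that are already bound, mainly CREB at cAMP response elements (CRE) and SRF with its ETS partners at CArG boxes. Most of the products are themselves transcription factors: Fos, FosB and JunB form AP-1 dimers, Egr1 to Egr4 are zinc finger proteins, Npas4 is a bHLH-PAS factor induced mainly by calcium influx in neurons, and Nr4a1 is an orphan nuclear receptor. Arc is an effector that acts at synapses, where it promotes AMPA receptor endocytosis. In the resting hippocampus few neurons hold Fos or Arc transcripts at any time, and handling, stress or novelty before dissection raises immediate early genes.

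The promoter sequences are shown because the genes are known for shared control and were read side by side across mice. RefSeq windows on GRCm38.p6, matched by symbol, were used for 7 of the 10 genes. Each window was taken from 250 bases before to 30 bases after the RefSeq start, and the start nearest to that of the most abundant isoform was used where there were several. The windows of Fos, Egr2, Egr4 and Nr4a1 are printed 5′ to 3′, because their starts coincide with the annotated start of that isoform. Capitals mark the CRE core (TGACG or its reverse complement CGTCA, searched on both strands), the TATA box (TATANA, on the strand of the gene) and the CArG box (both strands).
Fos, chr12:85473640-85473919, plus strand: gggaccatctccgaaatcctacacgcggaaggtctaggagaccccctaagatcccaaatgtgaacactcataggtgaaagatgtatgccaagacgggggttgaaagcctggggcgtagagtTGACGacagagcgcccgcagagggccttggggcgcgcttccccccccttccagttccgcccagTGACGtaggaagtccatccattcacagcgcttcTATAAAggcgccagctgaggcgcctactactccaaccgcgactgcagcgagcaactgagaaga
Egr2, chr10:67537619-67537898, plus strand: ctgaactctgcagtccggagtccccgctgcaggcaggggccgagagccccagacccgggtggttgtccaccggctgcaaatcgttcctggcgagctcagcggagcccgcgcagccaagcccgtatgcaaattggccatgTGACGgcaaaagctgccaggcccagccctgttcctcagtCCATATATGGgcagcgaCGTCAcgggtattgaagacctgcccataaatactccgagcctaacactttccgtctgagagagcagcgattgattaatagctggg
Egr4, chr6:85513560-85513839, minus strand: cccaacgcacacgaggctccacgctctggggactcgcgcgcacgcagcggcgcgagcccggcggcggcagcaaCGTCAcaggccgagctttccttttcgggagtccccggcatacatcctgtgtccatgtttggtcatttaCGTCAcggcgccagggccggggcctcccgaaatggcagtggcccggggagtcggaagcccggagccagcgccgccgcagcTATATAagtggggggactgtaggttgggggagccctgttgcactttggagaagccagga
Nr4a1, chr15:101266596-101266875, plus strand: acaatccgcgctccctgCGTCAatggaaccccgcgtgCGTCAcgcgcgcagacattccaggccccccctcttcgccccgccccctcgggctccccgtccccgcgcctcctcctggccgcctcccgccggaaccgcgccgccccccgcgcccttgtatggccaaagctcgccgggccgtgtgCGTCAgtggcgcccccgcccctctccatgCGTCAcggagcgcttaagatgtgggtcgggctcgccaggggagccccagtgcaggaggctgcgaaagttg
For Npas4, 30 bases are shown, since the window lies within the annotated first exon of Npas4-201, whose start is 345 bases upstream of the RefSeq start.
Npas4, chr19:4990126-4990155, minus strand: ttcgaCGTCAcgggaTGACGtcggaagtct
The CRE core occurred in 7 of 7 windows, those of Fosb and Junb included, and in 19.9% of the 32851 promoter windows of the same length. Nr4a1 held 4 matches, Fos, Egr2, Egr4 and Npas4 held 2 each, and Fosb and Junb held 1 each. The TATA box was found in 4 of the 7 (Fos, Junb, Egr4 and Npas4) and in 17.4% of all windows. The CArG box was found in Egr2 alone of the 7, from 72 to 63 bases before the start, and in 1.56% of all windows. Sequence farther than 250 bases before a start was not searched, so a gene without a match here may have one farther upstream. The whole palindrome TGACGTCA occurred in 0 of the 7 and in 1.74% of all windows, and the AP-1 site TGANTCA in 0 of the 7 and in 7.46%. No window for Egr1, Egr3 or Arc was used here. These matches describe letters and are not bound sites.

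The expected counts of a library summed to 40.5 to 62.1 M read pairs, of which the 10 genes took 0.0599% to 0.0667% in N-cre mice, against 0.0635%, 0.0938% and 0.101% in N-cre;Fox1 replicates 1, 2 and 3. Replicate 1 of each genotype stood apart in Xist, the RNA of the inactive X chromosome, with normalized counts of 23514 and 22029, while the other 4 mice had 17.3 to 22.1. The Y-linked Ddx3y went the other way, with 0.859 and 1.97 in these replicates against 2080 to 2829. Rbfox1, the gene of the transgene, overlapped between genotypes at 14813 ± 427 against 14931 ± 1223 (SD, n = 3 each). The study reported a modest rise of Rbfox1 mRNA, and of the protein by immunoblot, in N-cre;Fox1 hippocampus. Why the summed counts here did not show it was not tested. Markers of hippocampal neurons were present in every library. Choroid plexus markers (6) summed to 119266 normalized counts in N-cre replicate 3 and 268086 in N-cre;Fox1 replicate 2, against 1436 to 1946 in the other 4 mice, an order that the 10 genes did not share. In bulk RNA, fewer expressing cells and less RNA per cell cannot be told apart.

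Every one of the 10 genes had a higher mean in N-cre;Fox1 than in N-cre mice, but the excess came from N-cre;Fox1 replicates 2 and 3, and replicate 1 was near the N-cre mice. The median log2 fold change of the 10 genes was 0.49, against 0.00 over all 18924 genes tested, and it was 0.32 without N-cre;Fox1 replicate 3. Replicates 2 and 3 of N-cre;Fox1 were the 2 highest of the 6 mice in 9 of the 10 genes, an order that 9.89% of all genes had. N-cre;Fox1 replicate 1 lay within the range of the N-cre mice for 7 genes, above it for Fosb and Egr4 and below it for Npas4. In edgeR's quasi-likelihood test 0 of the 10 had an adjusted p under 0.05, as had 0.0264% of all genes. At an unadjusted p under 0.05 there were 2 of the 10 (Fosb and Egr4), against 6.19% of all genes. DESeq2's Wald test called these same 2, against 0.345% of the genes to which it gave an adjusted p, and limma-voom called 0 of the 10 and 0.0317% of all genes. Without N-cre;Fox1 replicate 1, edgeR called 4 (Fos, Junb, Egr2 and Egr4), against 0.15% of the genes tested without that mouse. Since the genes were picked knowing that this mouse stood apart, nothing is read from that count.

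**Figure D1:**
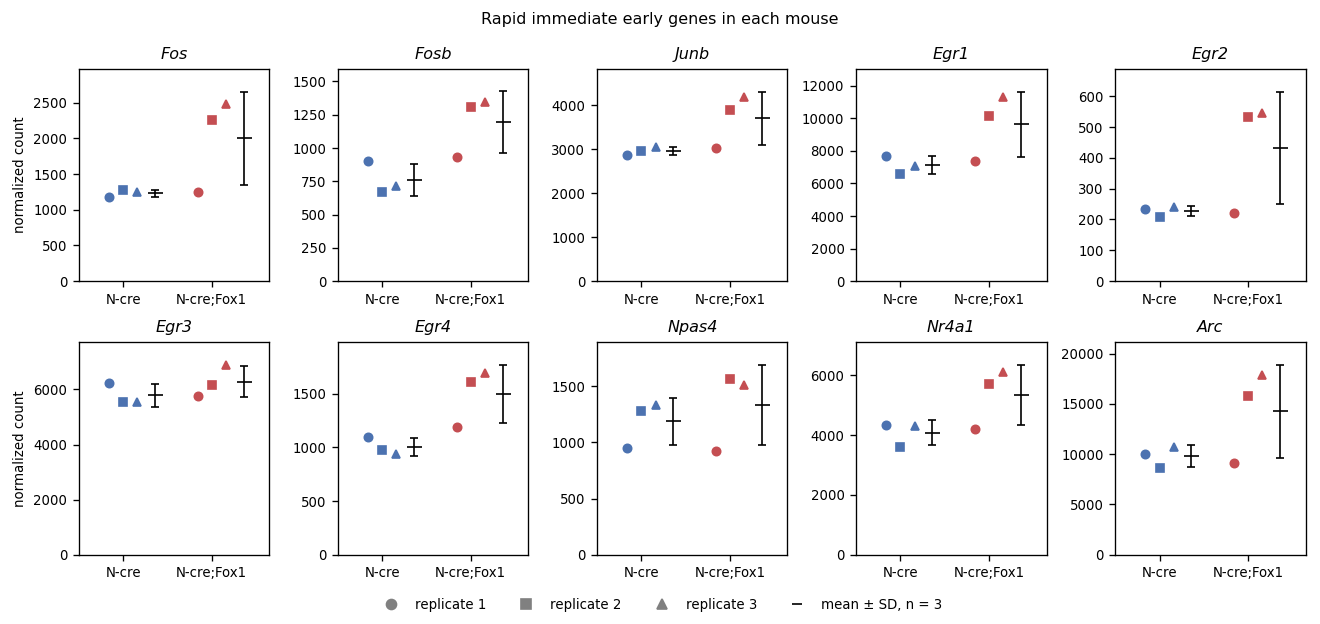
Normalized counts (y axes from 0) of the 10 genes in each mouse, by genotype (x axes). Symbols give replicates 1, 2 and 3, and bars the mean ± SD of 3 mice. In 9 genes N-cre;Fox1 replicates 2 and 3 sit highest, while replicate 1 lies near the N-cre mice; in Egr3 N-cre replicate 1 lies above N-cre;Fox1 replicate 2.

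Among the AP-1 genes, Fos (chr12:85473890-85477273) had normalized counts of 1176, 1276 and 1242 in N-cre replicates 1, 2 and 3 and of 1252, 2262 and 2484 in N-cre;Fox1 replicates 1, 2 and 3. The N-cre mice were tight, and N-cre;Fox1 replicate 1 lay among them. The means were 1231 ± 50.6 and 1999 ± 657 (SD, n = 3 each), with a log2 fold change of 0.70 (SE 0.292). Fosb (chr7:19302696-19310051), a partner of Jun proteins like Fos, had 899, 672 and 716 in N-cre and 932, 1310 and 1345 in the N-cre;Fox1 group. Its genotypes did not overlap, although N-cre;Fox1 replicate 1 exceeded N-cre replicate 1 by little. The log2 fold change was 0.65 (SE 0.184). Junb (chr8:84974484-84978718), the Jun protein of this set, had 2868, 2958 and 3060 in N-cre and 3030, 3899 and 4198 in the N-cre;Fox1 group, a log2 fold change of 0.33 (SE 0.129). Here too replicate 1 of N-cre;Fox1 fell between N-cre mice. Junb overlaps Prdx2 on the opposite strand, and the libraries are stranded, but the strand setting of the counting is not given in the sources used here.

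The Egr genes spanned the widest and the narrowest response of the set. Egr2 (chr10:67535475-67542188), the least abundant, had normalized counts of 235, 209 and 239 in N-cre and 222, 532 and 544 in the N-cre;Fox1 group. N-cre;Fox1 replicates 2 and 3 were 2.33 and 2.39 times the N-cre mean, and replicate 1 was 0.974 times. Its log2 fold change, 0.93 (SE 0.368), was the highest of the 10. Egr1 (chr18:34859823-34864984), widely used as a marker of recently active neurons, had 7713, 6584 and 7068 in N-cre and 7402, 10167 and 11330 in the N-cre;Fox1 group, with a log2 fold change of 0.44 (SE 0.183). Egr4 (chr6:85511121-85513589) had 1099, 975 and 938 against 1190, 1607 and 1695, and a log2 fold change of 0.58 (SE 0.144). As in Fosb, all 3 N-cre;Fox1 mice exceeded all 3 N-cre mice, an order found in 6.04% of all genes. Egr3 (chr14:70077203-70082614) differed from its family in having N-cre replicate 1 as its second highest mouse. Its counts were 6251, 5553 and 5545 in N-cre and 5777, 6177 and 6881 in the N-cre;Fox1 group. The log2 fold change of 0.12 (SE 0.0738) was the lowest of the 10, with 0.05 without N-cre;Fox1 replicate 3 and 0.18 without replicate 1 of either genotype. The highest mouse had 1.24 times the count of the lowest, against 2.61 times for Egr2.

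Nr4a1 (chr15:101254269-101274795) had normalized counts of 4336, 3613 and 4302 in N-cre and 4209, 5724 and 6097 in the N-cre;Fox1 group, a log2 fold change of 0.39 (SE 0.173). Arc (chr15:74669083-74672570) had 10039, 8601 and 10761 in N-cre and 9106, 15775 and 17919 in the N-cre;Fox1 group. The means of 9800 ± 1099 and 14266 ± 4596 (SD, n = 3 each) gave a log2 fold change of 0.54 (SE 0.299), which was 0.34 without N-cre;Fox1 replicate 3. Both genes put N-cre;Fox1 replicate 1 inside the N-cre range. Npas4 (chr19:4984355-4990316) was ordered differently: 949, 1281 and 1333 in N-cre and 926, 1567 and 1508 in the N-cre;Fox1 group. Its 2 lowest mice were replicate 1 of each genotype, the mice with high Xist, and its log2 fold change was 0.17 (SE 0.266). This value rests on single mice. It was 0.04 without N-cre replicate 1 or without N-cre;Fox1 replicate 2, below that of Egr3 in both cases. It was 0.07 without N-cre;Fox1 replicate 3, 0.27 without N-cre replicate 3 and 0.38 without N-cre;Fox1 replicate 1.

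Per length of transcript, Arc was the most abundant at 174 TPM, a unit that corrects for isoform length and depth (mean of 6 mice; range 124 to 259), followed by Egr1 at 118 (highest mouse 160). Nr4a1 at 84.1, Junb at 81.5 and Egr3 at 79.4 TPM overlapped widely, and the lowest mouse for Egr3, at 72.8, lay above the highest for Fos, at 54.0. Fos had a mean of 36.3, Egr4 of 25.7, Npas4 of 15.4 and Fosb of 13.6 TPM. Each of these overlapped with its neighbour in the order. Egr2 was lowest, at 5.13 TPM, and its highest mouse (8.47) stayed under the lowest mouse for Fosb (9.08). The spread between mice did not follow this order: the highest over the lowest mouse was 2.61 for Egr2, 2.11 for Fos and 2.08 for Arc, and 1.46 for Junb.

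Because Xist separated replicate 1 of each genotype from the rest, the genotypes were also read within the mice of like Xist. Among the 4 mice with low Xist, both N-cre;Fox1 mice exceeded both N-cre mice in 10 of 10 genes, an order that 19.2% of all genes had. The ratio of the means ran up to 2.40 for Egr2, with 1.89 for Fos and 1.74 for Arc, and was lowest for Npas4 and Egr3, at 17.6% and 17.7% above the N-cre mean. Between the 2 mice with high Xist, N-cre;Fox1 replicate 1 was higher than N-cre replicate 1 in 4 of the 10 (Fos, Fosb, Junb and Egr4). The ratios there ran from 0.907 for Arc to 1.08 for Egr4. The genes were picked with this pattern known, so the difference between the 2 comparisons was not tested. With 1 mouse of each genotype at high Xist, the effect of sex and that of the single mouse cannot be told apart.

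**Figure D2:**
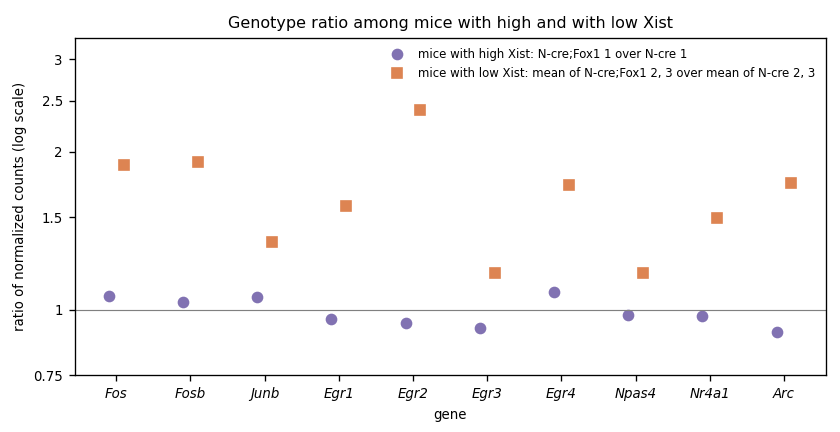
Ratio of normalized counts, N-cre;Fox1 over N-cre (y axis, log scale), for each gene (x axis): circles compare the 2 mice with high Xist, squares the means of 2 mice a genotype with low Xist. Circles lie between 0.907 and 1.08, squares from 17.6% above 1 to 2.40.

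The genes rose and fell together over the mice. With each gene weighted alike, the mean log2 level relative to the 6 mice was -0.19, -0.29 and -0.20 in N-cre replicates 1, 2 and 3 and -0.20, 0.39 and 0.48 in N-cre;Fox1 replicates 1, 2 and 3. Over the 45 pairs of genes Pearson's r of log2 CPM (counts scaled to library size) had a median of 0.919 (0.271 to 0.993; 6 mice), and Spearman's rho a median of 0.714 (0.20 to 1.0). After the mean of each genotype was removed the median r was 0.873, but 0.382 without N-cre;Fox1 replicate 1, so this value rests on the distance of that mouse from replicates 2 and 3. The points share the 6 libraries. Each pair was also read without the 2 mice farthest from the median of the gene listed first. These were N-cre;Fox1 replicates 2 and 3, except where Egr3 or Npas4 came first. The median r was then 0.309 with a range of -0.97 to 0.971, so the relation rests mostly on the mice left out. Egr2 had the steepest slope on the mean of the 9 other genes, 2.07, then Fos at 1.46 and Arc at 1.28, and Egr3 the shallowest, 0.26. Npas4 was least like the rest: its pairs had a median r of 0.598, against 0.935 for the 36 pairs without it, of which the lowest was 0.737.

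**Figure D3:**
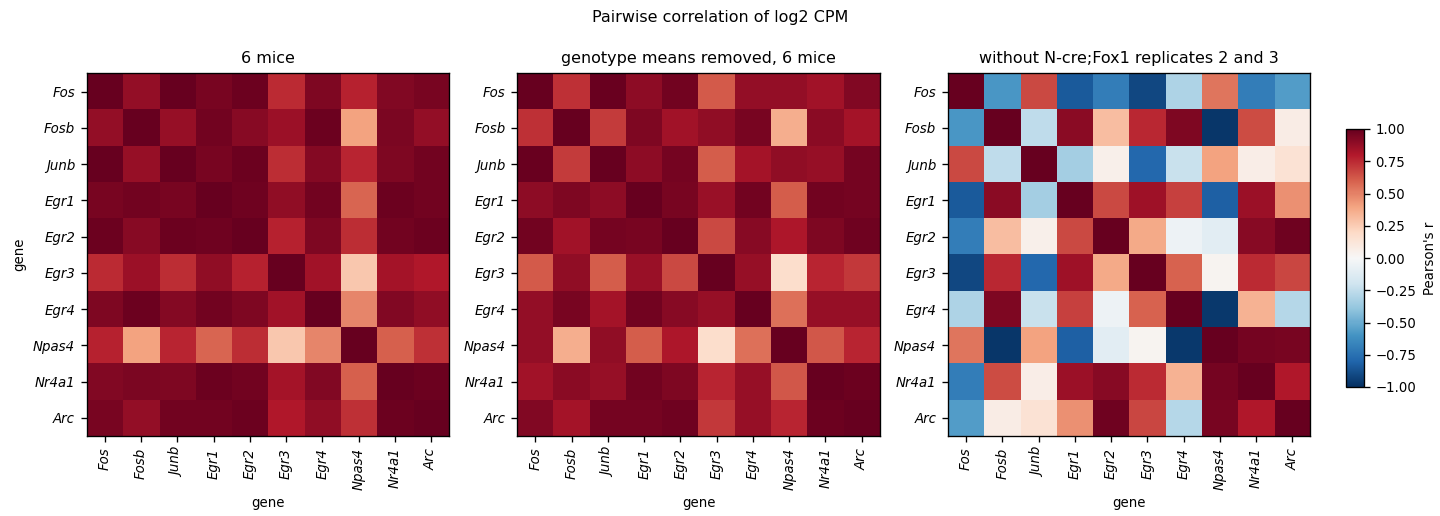
Pearson's r (colour, -1 to 1) of log2 CPM for every pair of the 10 genes (both axes), over 6 mice and over 6 mice after removing genotype means. The third panel uses 4 mice, without the 2 farthest from the median of the gene listed first in the pair. Those were N-cre;Fox1 replicates 2 and 3, as its heading says, except where Egr3 or Npas4 came first. Medians are 0.919, 0.873 and 0.309, and Npas4 and Egr3 are the palest lines in the first panel.

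Of 34 further rapid immediate early genes, 28 had a higher and 6 a lower mean in the N-cre;Fox1 group, with a median log2 fold change of 0.19. In edgeR's quasi-likelihood test 0 of the 34 were called, and 14 had an unadjusted p under 0.05, against 6.19% of all genes. DESeq2 called 2 (Nr4a2 and Fosl2), against 0.345% of the genes to which it gave an adjusted p, and limma-voom 0. N-cre;Fox1 replicates 2 and 3 were the 2 highest mice in 15 of the 34, against 9.89% of all genes. All N-cre;Fox1 mice exceeded all N-cre mice in 13, against 6.04%. The highest fold changes were those of Atf3, a stress-induced bZIP factor (log2 0.63), and Sik1, a CREB-induced kinase (0.52), and the lowest those of Klf6 (-0.14) and Ier3 (-0.09). Without N-cre;Fox1 replicate 1, Nr4a2 was called, and without both mice with high Xist 6 were. Those fits called 0.15% and 0.342% of all genes tested, and nothing is read from these counts. Of 19 delayed activity-induced genes, which are transcribed after the first wave, 14 were higher and 5 lower (median 0.10, but 0.06 without N-cre replicate 3). 0 were called by edgeR or limma-voom and 1, Homer1, by DESeq2, against the same 0.345%. Of the 19, 6 had an unadjusted p under 0.05, against 6.19% of all genes. Inhba, the activin A subunit (0.35), and Baz1a (0.32) were highest, and Kcnj2 (-0.26) and Ptgs2 (-0.10) lowest. The 23 genes of upstream signalling, among them Creb1, Srf, the Mef2 genes and NMDA receptor subunits, had a median of 0.01, with 14 higher and 9 lower. 0 were called by any of these tools and 1, Ep300, had an unadjusted p under 0.05 (0.13), followed by Elk4 (0.11), while Mef2c (-0.10) and Mkl1 (-0.07) were lowest.

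Heat shock chaperones followed the same mice. All 8 listed had N-cre;Fox1 replicates 2 and 3 as their highest mice, an order that 9.89% of all genes had. Hspa1b, an inducible Hsp70, had normalized counts of 1116, 1115 and 1101 in N-cre and 1205, 2108 and 2230 in the N-cre;Fox1 group. Hspa1a, its near-identical copy, with which reads may be shared, had 1212, 1034 and 1060 against 1034, 1893 and 1901. Dnajb1, an Hsp40 partner of Hsp70, had 2704, 2580 and 2627 against 2461, 3874 and 3851. All 8 had a higher mean in the N-cre;Fox1 group (median log2 fold change 0.29; Hspa1b 0.74, Hspa1a 0.55, Hsp90aa1 0.11 and Hspa8 0.12 at the ends). The median was 0.17 without N-cre;Fox1 replicate 2 and 0.41 without replicate 1, and all 8 stayed higher in both cases. In edgeR's test 0 of the 8 were called, and 4 had an unadjusted p under 0.05, against 6.19% of all genes. DESeq2 called Hsph1, against 0.345% of the genes to which it gave an adjusted p, and limma-voom 0. Without N-cre;Fox1 replicate 1, edgeR called 4, against 0.15% of the genes tested, and nothing is read from that count. Of 1409 genes that varied enough to be ranked (a mean normalized count of at least 100 and an SD of at least 0.2 on the log2 scale), 34 had an r above 0.9 with the mean level of the 10 genes over the 6 mice, and the 12 highest were Hspa1b (0.991), Rasa2 (0.984), Hspa1a (0.982), Dnajb1 (0.982), Foxf2, Nfil3, Rbm12b1, Agt, Snap23, Zdbf2, Gm43860 and Ncam2. Without the 2 mice farthest from the median, N-cre;Fox1 replicates 2 and 3, the r of the 12 spread from -0.37 for Gm43860 to 0.949 for Nfil3, with 0.925 for Agt, 0.735 for Rbm12b1 and 0.177 for Hspa1b.

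Some clock outputs ran the opposite way. Dbp, a PAR bZIP factor driven by the clock, had 3973, 4097 and 3921 normalized counts in N-cre and 3772, 2874 and 2642 in the N-cre;Fox1 group, and was the gene of lowest r with the 10 genes (-0.99), named after its values were seen. Of 10 circadian genes 4 were higher and 6 lower (median log2 fold change -0.08, but -0.04 without N-cre replicate 1 and -0.05 without N-cre;Fox1 replicate 3), with Dbp (-0.37) and Ciart (-0.28) lowest and Arntl (0.18) and Per2 (0.10) highest. In edgeR's test 0 were called, and 3 had an unadjusted p under 0.05, against 6.19% of all genes. Per3 (-0.27) had 3349, 3270 and 3339 normalized counts in N-cre and 2926, 2715 and 2600 in the N-cre;Fox1 group. It was thus lower in every N-cre;Fox1 mouse, replicate 1 included. DESeq2 called Per3, against 0.345% of the genes to which it gave an adjusted p, and limma-voom 0. Without N-cre;Fox1 replicate 1, edgeR called Dbp and Per3, against 0.15% of the genes tested, and nothing is read from that count. Targets of corticosteroids followed Xist instead: the mean log2 level of 8 was 0.28 and 0.34 in the 2 mice with high Xist and -0.20 to -0.11 in the other 4. These 2 mice were the highest in 6 of the 8, an order that 8.01% of all genes had, and the exceptions were Fkbp5 and Errfi1. Their median log2 fold change was 0.06, with 6 higher and 2 lower, and it was -0.13, with 2 higher, without N-cre;Fox1 replicate 1 and 0.24 without N-cre replicate 1. 0 of the 8 were called by edgeR, DESeq2 or limma-voom, and 0 had an unadjusted p under 0.05, against 6.19% of all genes. Without N-cre;Fox1 replicate 1, edgeR called Fkbp5, against 0.15% of the genes tested, and nothing is read from that call. Fkbp5, a glucocorticoid-induced cochaperone, was lowest in N-cre;Fox1 replicates 2 and 3, with 2698 and 3084 normalized counts against 3861 to 4115 in the other mice. Errfi1 (0.30) and Ddit4 (0.14) were highest and Fkbp5 (-0.30) and Tsc22d3 (-0.14) lowest. The part of stress, temperature, time of day or dissection in the level of the 10 genes was not tested.

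**Figure D4:**
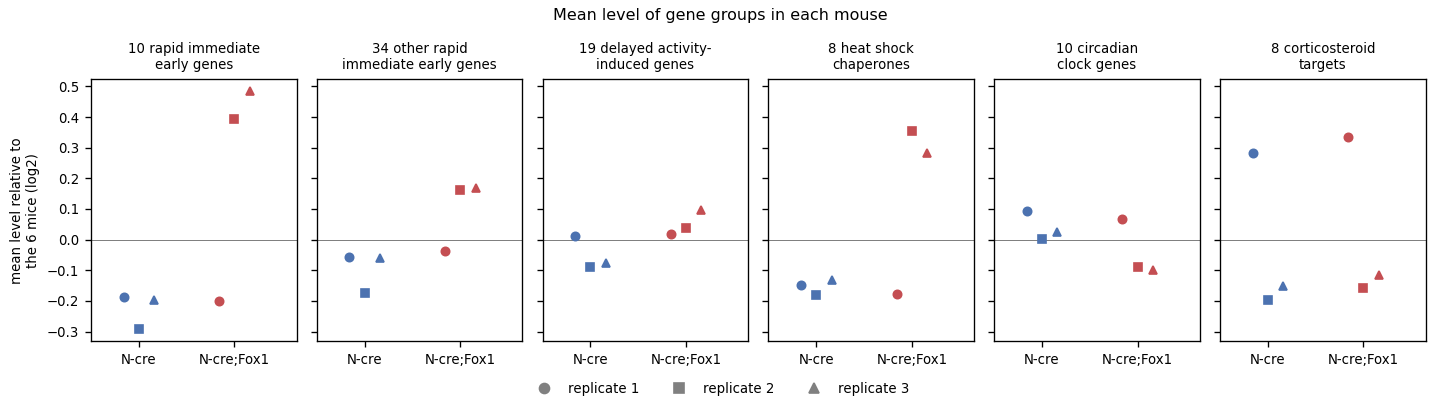
Mean log2 level relative to the 6 mice (y axis) in each mouse, by genotype (x axes), for the 10 genes and 5 lists. The 10 genes (0.39 and 0.48) and the heat shock chaperones (0.35 and 0.28) are highest in N-cre;Fox1 replicates 2 and 3, and corticosteroid targets are highest in replicate 1 of each genotype (0.28 and 0.34).

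Markers of hippocampal cells gave no such order. N-cre;Fox1 replicates 2 and 3 were the 2 highest mice in 0 of 9 markers of dentate granule cells, 0 of 7 of CA1 and 0 of 7 of CA3 pyramidal cells, and 0 of 7 each of interneurons, astrocytes, oligodendrocytes and microglia. They were so in 1 of 6 endothelial, 0 of 6 choroid plexus and 0 of 8 markers of neighbouring thalamus, striatum and cortex. The summed normalized count of the dentate markers was 26045 to 27039 in N-cre and 24733 to 29348 in the N-cre;Fox1 group, that of the CA1 markers 44561 to 48757 and 40566 to 45152, and that of the CA3 markers 20622 to 21470 and 21556 to 22390. Median log2 fold changes lay between -0.07 and 0.10 for these lists, apart from choroid plexus, whose median of 1.07 came from single mice. With one mouse left out they lay between -0.10 and 0.12, apart from the neighbouring regions, at -0.23 without N-cre;Fox1 replicate 2, and choroid plexus, at -3.29 without that mouse. All 7 CA1 markers had a lower mean in the N-cre;Fox1 group. In edgeR's test 0 markers of any list were called, and outside the astrocyte list 1 marker each of the dentate, CA3, interneuron, oligodendrocyte and neighbouring region lists had an unadjusted p under 0.05, while DESeq2 and limma-voom called 0. Astrocyte markers summed to 118623 to 123379 in N-cre and 124614 to 136718 in the N-cre;Fox1 group, without overlap. Of the 7, 4 had an unadjusted p under 0.05, against 6.19% of all genes. In 4 of the 7 all N-cre;Fox1 mice exceeded all N-cre mice, against 6.04% of all genes. DESeq2 called Gfap and Aqp4, against 0.345% of the genes to which it gave an adjusted p. With the term for Xist, edgeR called Gfap, among 11 genes called over the whole table. However, N-cre;Fox1 replicate 1, where the 10 genes were low, had the highest astrocyte sum. 0 of the markers were at 0 in all mice.

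At the level of isoforms, 21 of the 31 were abundant enough to test and 5 had no counts in any mouse. Of the 21, 18 had a higher and 3 a lower mean in the N-cre;Fox1 group. In edgeR's test 0 were called, as were 0% of the 50556 isoforms tested, 10 had an unadjusted p under 0.05 against 4.78% of all isoforms, and the lowest adjusted p was 0.882. DESeq2 and limma-voom also called 0. Egr4, Npas4 and Nr4a1 have 1 annotated isoform. For the other 7 genes the share of the most abundant isoform was compared by an exact two-sided permutation test, which with 3 against 3 mice cannot go below p = 0.1. The exact permutation p ran from 0.1 for Egr1 and Egr3 to 1.0 for Junb, and adjusted values over the 7 genes ran from 0.35 to 1.0. Some isoforms below were named because their counts did not overlap between genotypes, so a lack of overlap restates that choice. Its share over all isoforms is not given here.

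Egr3 was divided between its protein-coding isoform Egr3-204 and Egr3-202, annotated as a retained intron with a single exon of 3876 nt. Egr3-204 held 61.9%, 60.2% and 59.2% of the counts of the gene in N-cre and 63.3%, 66.9% and 66.8% in the N-cre;Fox1 group, higher in all 3 by 5.18 points in the mean (exact permutation p = 0.1). With counts divided by isoform length this separation was lost, at 53.8%, 51.5% and 49.7% against 52.4%, 57.6% and 57.4% (exact permutation p = 0.2). Egr3-202 held 32.0%, 33.5% and 33.8% against 28.3%, 26.9% and 26.2% (-5.99 points, exact permutation p = 0.1), and 28.3%, 29.1% and 28.8% against 23.8%, 23.5% and 22.9% with counts divided by length. Its normalized counts, 2006, 1864 and 1873 against 1633, 1662 and 1802, were lower in every N-cre;Fox1 mouse, replicate 1 included. Its share of counts was lowest in N-cre;Fox1 replicate 3, the mouse with the most Egr3. The share was highest in N-cre replicate 3, which had the least Egr3 by little (5545, against 5553 in N-cre replicate 2). The share did not follow the level of Egr3 in between. N-cre replicate 1, second highest in Egr3 (6251), held 32.0%, and N-cre;Fox1 replicate 1, with less Egr3 (5777), held 28.3%. Egr3-202 shares 3655 nt with Egr3-204 and has 221 nt of its own, so most of its reads fit either isoform and the split is an estimate of RSEM.

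Fosb has isoforms spliced within its last exon, which remove an intron of 140 nt (chr7:19305007-19305146). This is the event known to give the truncated protein ΔFosB, which lacks the C-terminal transactivation domain and is long-lived. Fosb-201 encodes 338 codons, Fosb-206 237 and Fosb-207 201. The last 2 together held 10.5%, 17.2% and 4.87% of the Fosb counts in N-cre and 13.7%, 14.1% and 12.3% in the N-cre;Fox1 group (exact permutation p = 0.6). In these shares the N-cre mice spread over the whole range of the others. With counts divided by isoform length, the 2 isoforms held more, at 25.4%, 29.1% and 11.55% against 31.8%, 26.3% and 26.1%. Their summed normalized counts were 94.3, 116 and 34.8 against 128, 185 and 165. These sums did not overlap between genotypes, nor did the counts of Fosb-206 by itself (21.8 to 72.7 against 85.2 to 100.5), which was named by that rule. Fosb-201 held 82.2%, 64.8% and 71.8% against 73.2%, 76.4% and 77.1% (exact permutation p = 0.7). Fosb-204, annotated as a retained intron, held 7.36%, 15.3% and 14.4% against 8.84%, 8.44% and 6.29% (exact permutation p = 0.3). Fosb-206 and Fosb-207 have no base that is not also in another isoform, so only reads across junctions set them apart.

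Among the rest, Egr1-202 held 91.0% ± 0.249 (SD, n = 3) of the Egr1 counts in N-cre and 1.05 points less in the N-cre;Fox1 group, without overlap (exact permutation p = 0.1). Its counterpart Egr1-201, which holds 1448 nt that Egr1-202 lacks, had normalized counts of 709, 599 and 615 against 774, 1029 and 1081, also without overlap. Both encode the same 533 codons. Fos-201, the coding isoform of Fos, held 94.1% ± 1.97 against 96.5% ± 1.06 (SD, n = 3 each), and its normalized counts of 1086, 1200 and 1192 against 1201, 2168 and 2421 did not overlap, although replicate 1 of N-cre;Fox1 stood at the level of the highest N-cre mouse. Arc-201 held 62.9% ± 2.32 against 64.6% ± 2.18 (SD, n = 3 each), but Arc-201 and Arc-202 differ by 3 and 2 nt, so few reads can tell them apart. Egr2-201 held 99.2%, 97.4% and 94.7% in N-cre and 79.8%, 97.1% and 98.0% in the N-cre;Fox1 group. The low value, in replicate 1, came with 44.9 normalized counts of Egr2-202, which has no base of its own.

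**Figure D5:**
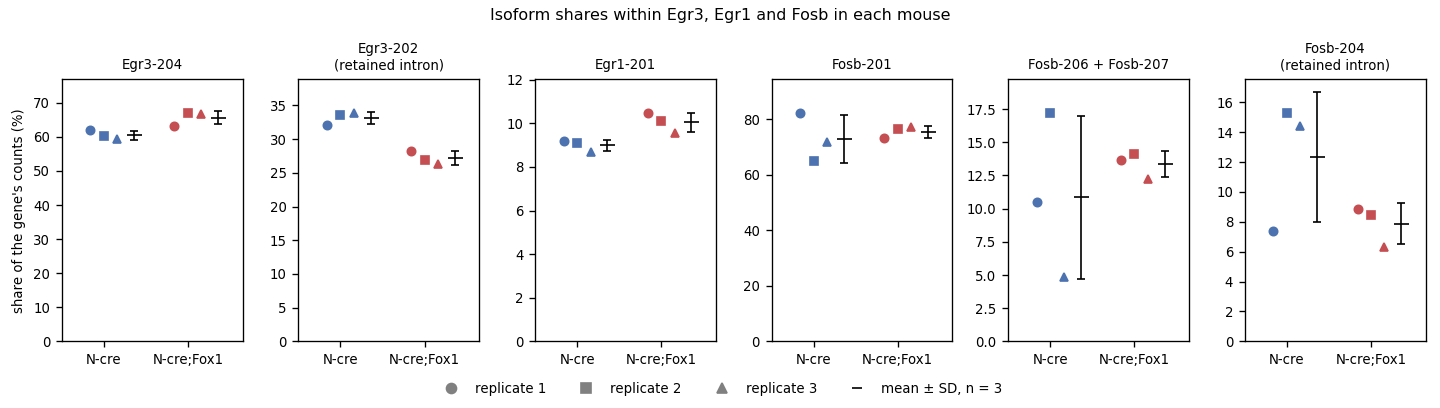
Share of the counts of a gene (%, y axes from 0) in each mouse, by genotype (x axes), for isoforms of Egr3, Egr1 and Fosb. Symbols give replicates and bars the mean ± SD of 3 mice. Egr3-202 is 32.0% to 33.8% in N-cre and 26.2% to 28.3% in the N-cre;Fox1 group, and the Fosb-206 and Fosb-207 share spreads from 4.87% to 17.2% within N-cre.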

How the data were processed

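Hippocampal total RNA (TruSeq Stranded Total RNA) was sequenced as paired reads, 1 library per mouse. The authors used cutadapt 1.18 for trimming and STAR 2.5.2b for alignment to mm10, and quantified isoforms of GENCODE M16 with RSEM 1.3.0. They deposited expected counts, neither normalized nor filtered, of which 81.9% to 82.7% of nonzero values were not whole. The expected counts of each library summed to 40.5 to 62.1 M read pairs. Spread between mice limits precision for abundant genes, and low counts limit it as well for rare isoforms. For example, N-cre replicate 3 had 16.7 expected counts of Fosb-206 and 9.96 of Fosb-207.

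Expected counts were summed by gene symbol, rounded, filtered with filterByExpr (minimum count 10, minimum total 15) and normalized by TMM. Normalized counts are counts divided by the TMM-scaled library size of each mouse and multiplied by the mean of these sizes. Genotypes were compared with edgeR 4.0.16 (glmQLFit robust, glmQLFTest, R 4.3.3) over all genes or isoforms, with Benjamini-Hochberg adjustment and a threshold of 0.05, and isoform shares with exact permutation tests (SciPy 1.17.1). TPM and positions came from GENCODE M21, also on mm10, where 130921 of 133944 isoforms were found under an unchanged version. Mice with Xist above 1000 were called high. The fit was tested on simulated data. Alternatives were DESeq2 1.42.0 size factors and Wald test, limma-voom (limma 3.58.1), no filter, a replicate block, a term for Xist, other prior counts and leaving out mice. Leaving out both mice with high Xist was added after seeing the data.

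The genes, their 16 companion lists (other rapid and delayed genes, upstream signalling, heat shock, corticosteroid, circadian, and markers of 10 cell types or regions) and the tests were chosen with earlier results of these data known. Named were all 10 genes; isoforms with at least 10% of the counts of their gene, or without overlap at a mean of at least 10 counts; the 12 genes of highest r; and of each non-marker list the 2 highest and 2 lowest fold changes. EBSeq, which the study used for its isoform calls, was not run.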

Additional observations from a re-analysis of the deposited data

How the results depend on the processing

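Only 3 mice a genotype and 1 high-Xist mouse in each limit every genotype value, and reads shared between isoforms limit the isoform values. All 130 refits of the fold changes of the 10 genes kept their sign. They reuse the same 6 libraries, and the direction was known when the genes were picked, so the kept sign is no separate support. The threshold was passed in 12, of which 4 came without N-cre;Fox1 replicate 1 and 6 without both mice with high Xist. The median log2 fold change of the 10 genes stayed between 0.32 (without N-cre;Fox1 replicate 3) and 0.73 (without both mice with high Xist). The number of genes called over the whole table was 5 (4 higher), 45 (31 higher) without a filter, 50 (37 higher) by DESeq2, 11 (7 higher) with the term for Xist and 65 (53 higher) without both mice with high Xist, and 2 (without N-cre replicate 2) to 29 (without N-cre;Fox1 replicate 1) with one mouse left out. Of the 10 genes, DESeq2 called 2, the fit without both high-Xist mice 6 (Fos, Fosb, Junb, Egr1, Egr2 and Egr4), and fits without one mouse 0 to 4. DESeq2 called 0.345% of the genes to which it gave an adjusted p. The fit without both high-Xist mice called 0.342% of all genes tested, and that without N-cre;Fox1 replicate 1 called 0.15%. The counts of 6 and 4 leave out the mouse known to stand apart when the genes were picked, so nothing is read from them. Of the 34 other rapid genes, DESeq2 called 2 and the term for Xist 1 (Sik1, among 11 genes called over the whole table). The fit without both high-Xist mice called 6 (Nr4a2, Nr4a3, Fosl2, Sik1, Per1 and Gadd45b), and fits without one mouse 0 to 1. Again nothing is read from the counts that leave out N-cre;Fox1 replicate 1. The cause was not tested. Spearman's rho gave a median of 0.714 in place of 0.919 over pairs. With one mouse left out, the median r within genotype was 0.382 (without N-cre;Fox1 replicate 1) to 0.965 and the range of the mean level over mice 0.686 to 0.778. Isoforms called stayed at 0 in every setting run. The exact permutation test of isoform shares cannot pass the threshold with 3 mice a genotype or fewer, so its count of 0 says nothing about stability.

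The labels number the mice 1 to 3 in both genotypes. Over 13738 genes, deviations of same-numbered mice correlated at 0.707, -0.24 and -0.39, so the numbers were not taken as pairs, and only the mice numbered 1 correlated best with their own number. With the replicate block 0 of the 10 genes were called, the median log2 fold change was 0.45, and 5 genes in all were called.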
